A study of Mus musculus with 4 samples.

Results

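Translation initiation and elongation factors were described across 4 arrays of mouse spinal cord. They were taken as all genes whose symbol begins with Eif or Eef followed by a digit in the annotation of the array platform, counting spots assigned to 1 gene. This gave 50 genes on 126 spots, of 10225 genes on 18511 such spots. A further 5 spots matched a factor together with another gene and were left out. The rule used no measured value. Of the 50 genes, 44 code for factors or closely related proteins, and 6 for kinases, binding proteins and methyltransferases that act on them.

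The cords came from adult female SJL/J mice, either control or with AT-EAE. In AT-EAE, the adoptive-transfer form of experimental autoimmune encephalomyelitis, a disease that models multiple sclerosis is started by giving recipients T cells that react to myelin. The cords of 2 mice were pooled for each RNA extract. Both channels of a 2-colour cDNA array held extracts of 1 group. Control arrays 1 and 2 carried control extracts 1 and 2, and 3 and 4. AT-EAE arrays 1 and 2 carried AT-EAE extracts numbered in the same way. Sets of 4 values follow the order control arrays 1 and 2, then AT-EAE arrays 1 and 2 (array order). The sources used here do not give the disease stage.

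The value of a spot was taken as the log2 ratio of the normalized signals of its 2 channels. Base 2 is assumed, and the sources used here do not name the channel in the numerator. A ratio therefore compares 2 extracts of 1 group. It cannot show whether AT-EAE cord had more or less of an mRNA than control cord, and its sign has meaning only beside other genes of the same array. What can be compared between groups is which genes had a value and how large the ratios were. The ratios of a gene's spots were averaged, leaving out empty spots. Spots with a value numbered 10788 to 21139 of 28704 per array, lowest on AT-EAE array 2, and with 2 arrays a group the precision is low. Of the markers of resident cord cells, the neurofilament genes Nefl and Nefm, the astrocyte genes Glul, Slc1a3, Aldoc and Gja1 and the myelin genes Mbp and Cnp had values on all 4 arrays. In array order, a value was present for 3, 3, 3 and 2 of 3 neuron markers with spots. The counts were 5, 5, 5 and 4 of 5 for astrocytes and 3, 4, 4 and 3 of 6 for microglia and macrophages. They were 4, 3, 3 and 3 of 4 for red blood cells and 2, 2, 1 and 1 of 2 for skeletal muscle. Of 6 T cell markers 1 had a spot, without a value on any array.

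Translation begins when eIF2, loaded with GTP and initiator tRNA, joins the small ribosomal subunit with eIF1, eIF1A and eIF3. The eIF4 proteins bind the mRNA cap and unwind the leader, and eIF5 and eIF5B release eIF2 and join the large subunit. The exchange factor eIF2B recharges eIF2 with GTP, and stress kinases block this step by phosphorylating eIF2. During elongation eEF1A delivers aminoacyl-tRNA, the eEF1B complex recharges eEF1A, and eEF2 moves the ribosome along the mRNA. In nervous tissue, mutations of eIF2B subunits cause vanishing white matter disease, and eEF2 kinase and eIF4E-binding proteins regulate protein synthesis at synapses.

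The first comparison was of the presence of values. Most factors had a value on every array, and their share was lower on the AT-EAE arrays, as it was for all genes. In array order, a value was present for 49, 49, 45 and 40 of the 50 factor genes. The shares were 98.0%, 98.0%, 90% and 80.0%, against 86.2%, 80.1%, 72.4% and 54.9% of all genes. By spots the shares were 91.3%, 88.9%, 79.4% and 67.5% for factors, and 80.9%, 72.9%, 61.7% and 42.1% for all assigned spots. The control arrays had a mean share of 98.0% ± 0.0 (SD, n = 2). The AT-EAE arrays had a mean share of 85.0% ± 7.07 (SD, n = 2). The difference of -13.0 percentage points had the smallest p that 4 arrays allow (2-sided exact permutation p = 0.333). It was -8.0 points without AT-EAE array 2. Over all genes the difference was -19.5 points. In bulk tissue, fewer cells of a type and less RNA per cell cannot be told apart, and the filter behind the empty spots is unknown.

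**Figure D1:**
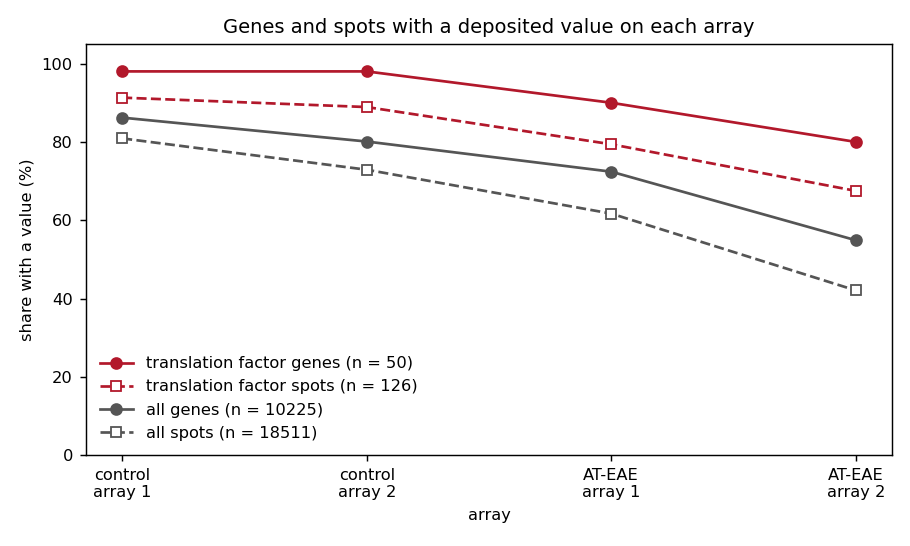
Share of genes (filled circles, solid lines) and of spots (open squares, dashed lines) with a deposited value on each of the 4 arrays, for translation factors (red) and for all assigned genes or spots (grey). The factors run from 98.0% to 80.0% by gene, and all genes from 86.2% to 54.9%.

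The number of spots per gene moved with these shares. Among genes with 1 spot, 10, 10, 8 and 7 of 11 factors had a value in array order. These were 90.9%, 90.9%, 72.7% and 63.6%, against 75.9%, 67.0%, 57.5% and 38.8% of all 1-spot genes. Among genes with 3 or more spots, 20, 20, 19 and 18 of 20 factors had a value, or 100%, 100%, 95.0% and 90%. All genes of that kind stood at 99.3%, 97.8%, 94.4% and 81.1%. The gap to all genes was therefore widest among genes with few spots, and its dependence on signal was not tested.

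The counts of genes with a value differed between the factor complexes, and this was not tested. The scaffold eIF3 holds the small subunit ready for mRNA. All 10 of its subunit genes that were represented by counted spots had values on all 4 arrays. So did all 4 genes of the eIF1 and eIF1A group, both eIF5A genes, all 3 subunit joining factors (Eif5, Eif5b and Eif6), and all 3 genes listed with the eEF1B complex (Eef1b2, Eef1g and Eef1e1). In array order, 5, 5, 4 and 2 of the 5 subunits of eIF2B had a value. For the 5 genes listed with eIF2 these counts were 5, 5, 5 and 2. Eif2a and Eif2d, which are among them and had no value on AT-EAE array 2, do not code for eIF2 subunits. On AT-EAE array 2, where 54.9% of all genes had a value, 2 of 5 is not far from the background. Both eIF2 kinase genes, and both genes for the eIF4E-binding protein and transporter, with 2 or 3 spots each, had values on all 4 arrays. Both genes of the eEF2 kinase and methyltransferase group had values on both control arrays and none on either AT-EAE array. The eIF2B and eEF2 regulator genes had 1 to 3 spots each, and the eIF3 genes 1 to 6.

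Of the 50 factors, 40 had values on all 4 arrays, or 80.0%, against 53.1% of all genes. Both control arrays had a value for 49 factors, against 79% of all genes, and both AT-EAE arrays for 40, against 54.0%. Values on both control arrays and neither AT-EAE array were found for 4 factors, or 8.0%, near the 9.14% of all genes. They were the eEF2 kinase gene Eef2k, the eEF2 lysine methyltransferase gene Eef2kmt, the eIF2B gamma subunit gene Eif2b3, and Eif4e3, a cap-binding relative of eIF4E. Eef2k was at -0.18 and -0.24 on control arrays 1 and 2, Eef2kmt at 0.03 and -0.27, Eif2b3 at 0.01 and -0.01, and Eif4e3 at 0.17 and 0.43. A further 5 factors, or 10%, had values on all arrays but AT-EAE array 2, against 16.3% of all genes. These were Eif2a, Eif2d, Eif2s3x, Eif2b1 and Eif2b2. No factor had values on both AT-EAE arrays and neither control array, and 0.127% of all genes did. None had values on all arrays but AT-EAE array 1, against 0.509% of all genes. Eef1a2, the eEF1A form known from neurons and muscle, was represented by 1 spot and had no value on any array. Of all genes, with any number of spots, 11.9% had none. Among all 1-spot genes, 75.9%, 67.0%, 57.5% and 38.8% had a value in array order.

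The second comparison was of the size of the ratios. No factor reached a 2-fold ratio (absolute log2 ratio of at least 1) on any array. Over all genes 0.136%, 0.391%, 0.365% and 1.07% did so in array order. At such shares a count of 0 among 40 to 49 factors is near the background. The factors also had more spots per gene than all genes (126 spots for 50 genes, against 18511 for 10225), and averaging over spots narrows ratios. The part of this in the sizes below was not tested. The median absolute ratio of the factors was 0.06, 0.14, 0.11 and 0.17 in the same order, against 0.12, 0.15, 0.12 and 0.23 of all genes. An absolute ratio of at least 0.5 was reached by 0, 1, 1 and 2 factors, while 2.82%, 5.77%, 3.42% and 15.1% of all genes reached it. The spread over factors, as a standard deviation from the median absolute deviation (MAD), was 0.10, 0.19, 0.12 and 0.23. For control this averaged 0.15 ± 0.06 (SD, n = 2 arrays). For AT-EAE it averaged 0.18 ± 0.07 (SD, n = 2 arrays). The difference of 0.03 was smaller than either SD (2-sided exact permutation p = 0.667, smallest possible 0.333), and was -0.01 without control array 1 and -0.02 without AT-EAE array 2. A pooled standard deviation between spots of the same factor of 0.23, 0.25, 0.19 and 0.43 shows how coarse a single spot is. For all genes it was 0.24, 0.28, 0.24 and 0.36.

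**Figure D2:**
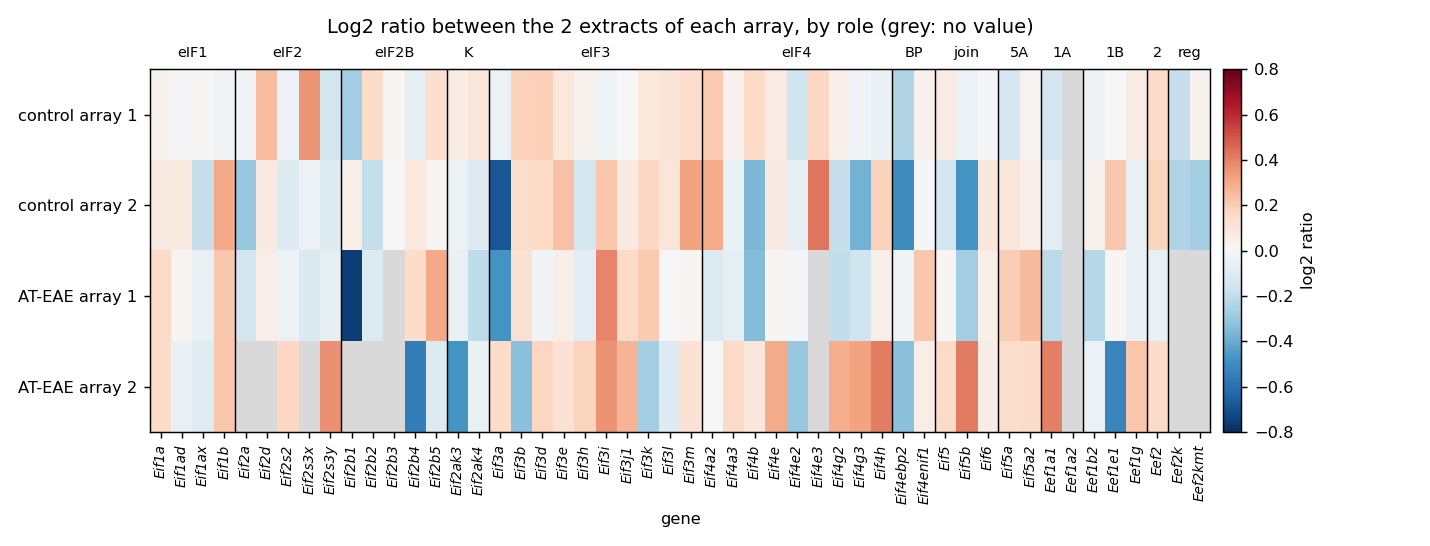
Log2 ratio between the 2 extracts of each array (colour, from -0.8 in blue to 0.8 in red) for the 50 factor genes (columns, grouped by role) on the 4 arrays (rows), with grey for no value. Above the columns K marks eIF2 kinases, BP the eIF4E-binding protein and transporter genes, join the subunit joining factors, 5A eIF5A, 1A eEF1A, 1B eEF1B, 2 eEF2, and reg the eEF2 kinase and methyltransferase. The eIF3 gene Eif3a is at -0.68 on control array 2 and -0.48 on AT-EAE array 1.

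Of the 4 genes of the eIF1 and eIF1A group, Eif1b lay farthest from the array medians. These were -0.01, 0.004, 0.01 and -0.07 in array order. Eif1b, a close relative of eIF1, which guards start codon choice, was at -0.03, 0.30, 0.21 and 0.22 in that order. It was near the array median on control array 1 and above it on the other 3. Its 2 spots were both above 0 on those 3 arrays, at 0.17 to 0.43 on control array 2 and 0.09 to 0.35 on AT-EAE array 2. Eif1a, Eif1ax and Eif1ad ranged from -0.18 to 0.15. A single Eif1a spot was at 0.63 and 0.58 on the AT-EAE arrays while the other 2 were at -0.20 to 0.06.

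Of the genes listed with eIF2, Eif2s2 codes for the beta subunit, Eif2s3x and Eif2s3y for X-linked and Y-linked forms of the gamma subunit, and Eif2a and Eif2d for proteins that deliver tRNA without eIF2. Eif2s2 was at -0.05, -0.10, -0.05 and 0.17 in array order. Eif2s3x was at 0.35, -0.05 and -0.12 on the first 3 arrays. Eif2s3y was at -0.15, -0.10, -0.07 and 0.37, so that a gene of the Y chromosome had values on all 4 arrays although every mouse was female. On AT-EAE array 2 the value came from 1 of its 2 spots. Whether these spots bound RNA of Eif2s3x was not tested. Both genes lay below 0 on control array 2 and AT-EAE array 1, and on opposite sides of it on control array 1. Eif2a was at -0.03, -0.30 and -0.14, and Eif2d at 0.25, 0.07 and 0.05, on the first 3 arrays.

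Eif2b1, the alpha subunit, was at -0.28 and 0.05 on control arrays 1 and 2 and -0.75 on AT-EAE array 1, the lowest factor on control array 1 and on AT-EAE array 1. A single spot carried this value, at -0.70, 0.02 and -0.75 on these arrays, and the gene's other spot was at 0.14 and 0.08 on the control arrays and without a value in AT-EAE. Eif2b4, the delta subunit, was at -0.08, 0.08, 0.15 and -0.55 on the 4 arrays. Its 3 spots disagreed there, at -1.28, -0.42 and 0.04. Eif2b5, the catalytic epsilon subunit, was at 0.14, 0.02, 0.30 and -0.11, and Eif2b2, the beta subunit, at 0.15, -0.19 and -0.11 on the first 3 arrays. The 2 eIF2B values of at least 0.5 in size thus rested on 1 spot or on spots that differed by more than 1.

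Of the 4 eIF2 kinases, Eif2ak3 and Eif2ak4 were represented. Eif2ak3 codes for PERK, the kinase that senses unfolded protein in the endoplasmic reticulum, and was at 0.06, -0.04, -0.06 and -0.48 in array order. The last value came from 1 spot. Eif2ak4 codes for GCN2, which senses uncharged tRNA, and was at 0.09, -0.10, -0.21 and -0.05.

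Among the eIF3 subunits represented here, 1 stood apart from the other 9. Eif3a codes for the largest subunit, on which the complex is assembled, and was at -0.05, -0.68, -0.48 and 0.14 in array order. On control array 2 its 6 spots ranged from -1.05 to -0.39, and on AT-EAE array 1 from -0.73 to -0.29, all below 0 on both arrays. On AT-EAE array 2, 4 of its 5 spots with a value were above 0, from -0.03 to 0.41. The other eIF3 genes ranged from -0.14 to 0.32 on control array 2 and from -0.09 to 0.39 on AT-EAE array 1. Eif3i was at -0.03, 0.22, 0.39 and 0.36 on 1 spot, the highest factor on AT-EAE array 1, and Eif3m was at 0.14, 0.32, 0.01 and 0.12. On AT-EAE array 2 the lowest eIF3 genes were Eif3b at -0.34 and Eif3k at -0.27, and the 2 spots of Eif3e were at -0.63 and 0.87. Over the 10 eIF3 genes the median was 0.09, 0.15, 0.02 and 0.20 above the array median in array order, with 8, 8, 6 and 7 genes above.

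The eIF4 genes split on control array 2. Eif4b codes for a cofactor of the helicase eIF4A, and was at 0.15, -0.36, -0.35 and 0.09 in array order. Its 3 spots were all above 0 on control array 1 and all below 0 on control array 2 and AT-EAE array 1. On AT-EAE array 2 they disagreed in sign, at 0.27, 0.17 and -0.18. Eif4g2, a scaffold protein that lacks the eIF4E-binding part of eIF4G, was at 0.04, -0.18, -0.20 and 0.29. Of its 4 spots, 2 spots of the same clone were at -0.45 on control array 2, and the others at -0.13 and 0.30. Eif4g3, an eIF4G scaffold, was at -0.02, -0.38, -0.16 and 0.32, with both spots below 0 on control array 2 and AT-EAE array 1 and above 0 on AT-EAE array 2. By contrast, Eif4a2, a helicase, was at 0.21, 0.30, -0.11 and -0.004, and Eif4e, which binds the cap, at 0.06, 0.07, 0.01 and 0.30.

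Eif4e2, a cap-binding protein that competes with eIF4E, was below 0 on all 4 arrays, at -0.16, -0.08, -0.02 and -0.30 as a mean over 3 to 5 spots. Its spots disagreed in sign, from -0.47 to 0.24 on control array 2 and from -0.53 to 0.23 on AT-EAE array 1. Eif4a3, of the exon junction complex, was at 0.03, -0.05, -0.07 and 0.15. Eif4h, another eIF4A cofactor, was at -0.05, 0.19, 0.05 and 0.41, but its spots on AT-EAE array 2 were at 1.57, 0.15 and -0.49. Eif4ebp2, the main eIF4E-binding protein of brain, was at -0.24, -0.50, -0.03 and -0.34, below 0 on all 4 arrays. Its 2 spots were at -0.68 and 0.20 on control array 1, at -0.47 and -0.52 on control array 2, and only 1 had values in AT-EAE. Eif4enif1, which carries eIF4E into the nucleus, was at 0.04, -0.01, 0.21 and 0.05.

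Among the joining factors, Eif5b codes for the GTPase that joins the ribosomal subunits, and was at -0.05, -0.48, -0.28 and 0.41 in array order. Both of its spots were at -0.48 on control array 2, and at 0.26 and 0.56 on AT-EAE array 2, where it was the highest factor. Eif5, which activates the GTPase of eIF2, was at 0.06, -0.15, 0.01 and 0.15, and Eif6, which keeps the subunits apart, at -0.02, 0.09, 0.06 and 0.06. Eif5a and Eif5a2 code for the protein that rescues ribosomes stalled at proline runs. In array order, Eif5a was at -0.14, 0.09, 0.20 and 0.14. Eif5a2 was at 0.02, 0.05, 0.25 and 0.15. These paralogs lay within 0.2 of each other on every array.

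For elongation, Eef1a1 was at -0.15, -0.08, -0.21 and 0.40 in array order. All of its 6 spots were above 0 on AT-EAE array 2, at 0.19 to 0.52. On control array 1 they ran from -1.20 to 0.26, and the lowest of them also gave the lowest value on control array 2, at -0.63. Eef1g, a structural eEF1B subunit, was at 0.06, -0.06, -0.06 and 0.22, and Eef1b2, the exchange subunit, at -0.04, 0.03, -0.23 and -0.05. Eef1e1, whose product belongs to the tRNA synthetase complex, was at 0.001, 0.22, 0.02 and -0.53 on 1 spot. Eef2 was at 0.15, 0.18, -0.06 and 0.15 over 4 spots.

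**Figure D3:**
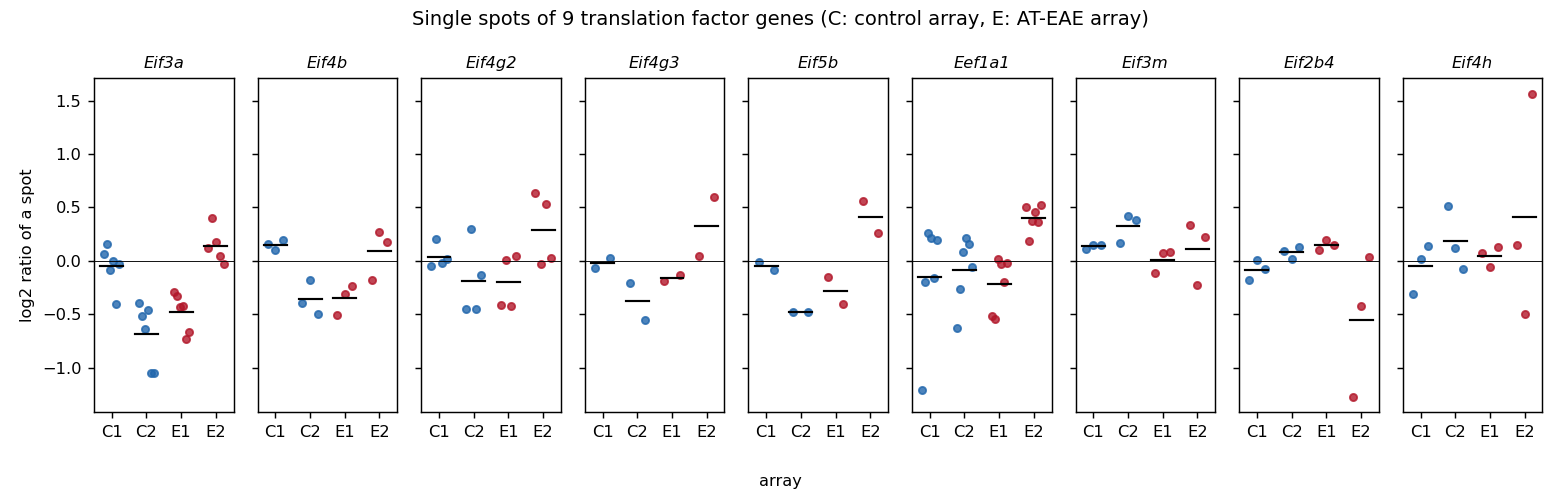
Log2 ratios of single spots (points, blue for control and red for AT-EAE arrays) and their mean (black line) for 9 factor genes, with C1, C2, E1 and E2 for control arrays 1 and 2 and AT-EAE arrays 1 and 2. All 6 Eif3a spots lie below 0 on C2 and E1, while the Eif2b4 and Eif4h spots spread over more than 1 log2 unit on E2.

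The third comparison was of the arrays with each other. The genes Eif3a, Eif4b, Eif4g2, Eif4g3 and Eif5b (Entrez Gene IDs 13669, 75705, 13690, 230861 and 226982) followed 1 pattern, lying at least 0.15 below the array median on both control array 2 and AT-EAE array 1 and at least 0.15 above it on AT-EAE array 2. The pattern and its distance of 0.15 were chosen after the values were seen. For Eif4g2 it rested on the spots of 1 clone, with the other spots within 0.15 of the array median on both AT-EAE arrays. Below and above on an array depend on which of its 2 extracts was the numerator. The pattern therefore shows no direction shared between arrays. It held for 5 of 40 factors with values on all arrays, or 12.5%, and for 2.27% of all 5429 genes. These shares are not matched for spot number, and the 5 factors have 2 to 6 spots each. For all genes with 3 or more spots with a value, the median relative to the array median was -0.07, -0.04 and 0.12 on these 3 arrays. For all genes with 1 such spot it was 0.03, 0.02 and -0.03. The part of spot number in the pattern was not tested. The same 5 factors were those at least 0.15 below the median on control array 2 and AT-EAE array 1, whatever AT-EAE array 2 showed, which held for 12.5% of factors and 7.96% of all genes. At a distance of 0.1 the pattern over 3 arrays held for 6 factors, with Eif3h added, and 4.55% of all genes. At 0.2 it held for Eif3a and Eif5b, and 1.11% of all genes. A place at least 0.15 above the median on control array 2 and AT-EAE array 1 held for Eif1b, Eif3i and Eif3k, or 7.5% against 7.74% of all genes.

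Over the 40 factors, the ratios on control array 2 and AT-EAE array 1 had a Pearson correlation of 0.65 and a Spearman correlation of 0.60. Over all 5429 genes these were 0.33 and 0.35. Both are descriptions across genes, which are not independent replicates, and the 2 arrays have no extract in common. The factors had more spots per gene than all genes, and the part of spot number in these correlations was not tested. The sign of a correlation, and the side counts that follow, would turn round if the 2 extracts of 1 array were swapped. Of the 40 factors, 33 lay on the same side of the array median on both arrays, or 82.5%, against 62.7% of all genes. The next highest Pearson correlation over factors was that of the 2 control arrays, at 0.38 (all genes 0.12). Between control array 2 and AT-EAE array 2 the correlation over factors was -0.11 (all genes -0.0012), between control array 1 and AT-EAE array 2 it was -0.06 (all genes 0.31), between control array 1 and AT-EAE array 1 it was 0.03 (all genes 0.15), and between the AT-EAE arrays it was -0.15 (all genes 0.19).

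**Figure D4:**
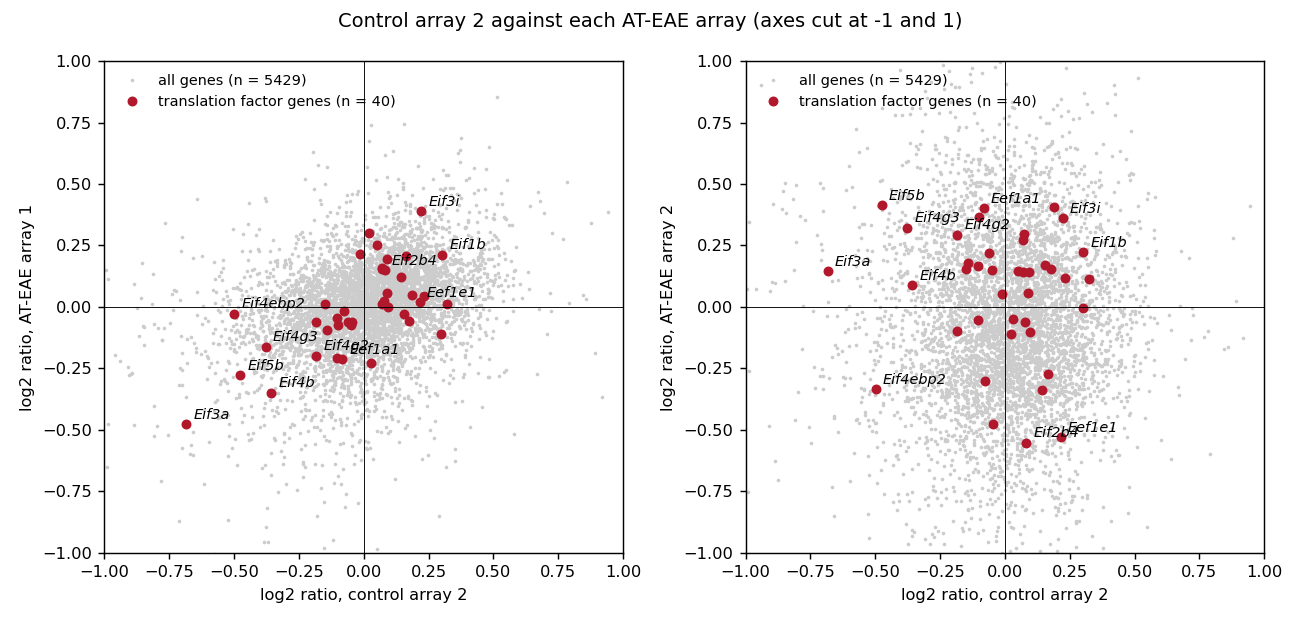
Log2 ratio on control array 2 (x axis) against AT-EAE array 1 (left) and AT-EAE array 2 (right) for the 40 factors with values on all arrays (red) over all 5429 genes (grey). Axes end at -1 and 1, which leaves out 23 and 65 genes and no factor. Eif3a, Eif5b, Eif4b, Eif4g3 and Eif4g2 lie at the lower left against AT-EAE array 1 and at the upper left against AT-EAE array 2.

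Promoters were set side by side to show what sequence the genes of this pattern have in front of their starts. RefSeq promoters (GRCm38.p6) matched 41 of the 50 factors, and 4 of the 5 genes of the pattern. The 150 bases before the first listed start are given 5′ to 3′, with capitals for matches, on either strand, to the GC box GGGCGG, the ETS motif CCGGAAG, the E-box CACGTG and the TATA box TATAAA.
Eif3a, chr19:60790694-60790843, reverse strand: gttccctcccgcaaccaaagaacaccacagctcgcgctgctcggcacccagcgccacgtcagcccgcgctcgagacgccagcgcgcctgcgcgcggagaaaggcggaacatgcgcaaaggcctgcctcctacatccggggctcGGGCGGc
Eif4b, chr15:102073623-102073772, forward strand: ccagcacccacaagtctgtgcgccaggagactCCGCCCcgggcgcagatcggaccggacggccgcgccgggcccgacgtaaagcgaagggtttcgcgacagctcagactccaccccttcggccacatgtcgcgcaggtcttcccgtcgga
Eif4g3, chr4:137993305-137993454, forward strand: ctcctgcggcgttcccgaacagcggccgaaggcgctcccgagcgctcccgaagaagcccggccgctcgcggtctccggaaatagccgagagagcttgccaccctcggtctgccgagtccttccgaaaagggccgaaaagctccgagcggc
Eif5b, chr1:37997860-37998009, forward strand: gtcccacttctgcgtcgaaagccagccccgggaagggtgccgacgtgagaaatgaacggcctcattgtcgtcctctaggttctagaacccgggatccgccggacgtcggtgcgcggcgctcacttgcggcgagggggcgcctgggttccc
Eif3a and Eif4b each hold 1 GC box, and in Eif4g3 and Eif5b none of the 4 motifs was found in this window. GC content was 70.7%, 69.3%, 68.7% and 66.7% in the order printed, against a median of 66.0% over the 41 factors and 54.0% over 27025 genes. The 27025 are all genes with a listed promoter, not only those on the arrays. A GC box was found in 26 of the 41 factor promoters, or 63.4%, and in 29.0% of the 27025 genes. The ETS motif was found in 6, or 14.6% against 5.68%, the E-box in 6, or 14.6% against 4.3%, and the TATA box in 1, that of Eef2, or 2.44% against 8.08%. For Eif4g3 the listed start lies within the annotated span of the gene, so its window is not upstream of the whole gene. A match describes letters and is not a measured binding site.

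As a group, the factors lay near the array median on 3 arrays and above it on AT-EAE array 2. Their median relative to the array median was 0.03, 0.02 and -0.04 on control arrays 1 and 2 and AT-EAE array 1, with 30 of 49, 25 of 49 and 20 of 45 genes above it, where 50% of all genes lie above. On AT-EAE array 2 it was 0.22, with 30 of 40 genes above. A single array gives no test of such a shift. As a mean over the factors the shift was 0.13. By the number of spots with a value on AT-EAE array 2, the median was 0.05 for 18 factors with 1 spot, 0.32 for 8 with 2 spots and 0.22 for 14 with 3 or more. For all genes of these kinds it was -0.03, 0.05 and 0.12. The part of spot number in the shift was not tested further. Cytosolic ribosomal proteins, the parts of the ribosome itself, were at 0.03, 0.29, -0.03 and -0.09 in array order, with 55 of 60 genes above the median on control array 2 and 15 of 56 on AT-EAE array 2. The 2 groups of genes of the translation machinery thus had different values on control array 2 and AT-EAE array 2, a difference that was not tested.

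The mean ratio of each gene over the 4 arrays was tested against 0 with limma for 5429 genes. Extract numbers are arbitrary, so a mean shared by the 4 arrays would be tied to the channels. It is not a trait of control or AT-EAE cord. At a Benjamini-Hochberg adjusted p of 0.05, 0 of 40 factors were called, and 0.0184% of all genes. Unadjusted, 2 factors were under 0.05, or 5.0%, against 11.2% of all genes. They were Eif4ebp2, with a mean ratio of -0.28 (SE 0.10, n = 4 arrays, adjusted p = 0.392 in limma) and values below 0 on 4 of 4 arrays, and Eif3i, with 0.24 (SE 0.10, adjusted p = 0.421 in limma) and values above 0 on 3 of 4. The mean of Eif3a was -0.27 (SE 0.14, adjusted p = 0.504 in limma). For the contrast of AT-EAE ratios with control ratios, which again compares no levels, limma called 0 of 40 factors and 0.0184% of all genes, with 0 factors under an unadjusted p of 0.05. Without AT-EAE array 1, 8 of 40 factors were under an unadjusted p of 0.05, or 20% against 15.7% of all genes, and 0 were called.

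Genes that act with the factors were taken from 6 lists. Limma called none of them in either direction for the mean ratio, among 8 poly(A)-binding and partner genes, 2 termination and recycling genes, 4 genes of mTOR and MNK signalling, 7 integrated stress response genes, 14 cytosolic tRNA synthetase genes and 3 mitochondrial translation factors tested. Nor did it call any for the AT-EAE minus control difference. Pabpc1, the cytosolic poly(A)-binding protein that contacts eIF4G, was at 0.01, -0.34, -0.26 and 0.57 in array order. Other genes of that list did not follow these values. Pabpc4, another poly(A)-binding protein, was at -0.37, 0.01, -0.19 and -0.40, and Paip1, a partner of Pabpc1, at -0.13, 0.36, 0.14 and -0.06. The list median lay at -0.05, 0.07, 0.05 and 0.02 relative to the array medians, with 5 of 10, 5 of 8, 5 of 8 and 6 of 8 genes above. The mTOR and MNK signalling pathway controls eIF4E and its binding proteins. Of the genes listed with it, 5 of 8, 2 of 8, 0 of 7 and 0 of 4 lay above the array median in array order. The list holds Rps6, also counted above with the cytosolic ribosomal proteins, which was at -0.64 on AT-EAE array 2. Since the sign of a ratio cannot be compared between groups, these counts describe each array alone. Tsc2, an inhibitor of mTOR, was at 0.08, -0.36, -0.38 and -0.66, and the kinase gene Akt1 at 0.38, 0.27, -0.46 and -0.21. Atf4, the transcription factor whose mRNA is translated when eIF2 is phosphorylated, was at 0.30, -0.09, -0.46 and -0.21, and the asparagine synthetase gene Asns, its target, at 0.19, 0.0049, 0.38 and 0.18. The tRNA synthetase list lay at -0.09, -0.10, -0.02 and 0.17 relative to the array medians, with 7 of 19, 5 of 19, 7 of 18 and 9 of 14 genes above.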

How the data were processed

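RNA of control and AT-EAE spinal cord was measured on 2-colour cDNA arrays. The authors deposited 1 value per spot, taken as a log2 ratio. The labels speak of normalized green and red signals; log base, direction, spot filter and software are unknown here. Genes came from the platform annotation, and spots of a gene were averaged. Members and gene lists were chosen with earlier results of these data known. Values were printed for members by role, with those at an absolute ratio of at least 0.5, the 5 highest and 5 lowest means, lost values, paralogs and kinases in full. At most the 2 largest ratios per array were named from each other list. Shares and MAD-based spreads were compared by 2-sided exact permutation over 4 arrays. Genes with values on all 4 arrays were fitted with limma 3.58.1 (R 4.3.3), checked on simulated data, with Benjamini-Hochberg adjustment over all genes. P-values measure the spread between arrays of pooled cords. Alternatives covered spot summaries, filters, membership, centring, a replicate block and left-out arrays.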

Additional observations from a re-analysis of the deposited data

How the results depend on the processing

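Of 180 alternative values, 159 stayed within the limits set for each result, 19 moved and 2 reversed. The limit for a factor median was the SD between the arrays of its group, 0.1784 for AT-EAE and 0.0097 for control. With 4 arrays the exact permutation p could not fall below 0.333, so a share or spread difference could only stay or reverse. The tally therefore depends on these limits and is not a measure of robustness. The difference in spread between AT-EAE and control ran from -0.0208 to 0.0808 with 1 array left out, and turned to -0.0134 without control array 1 and to -0.0208 without AT-EAE array 2. The difference in the share with a value ran from -18.0 to -8.0 points with 1 array left out. The factor median relative to the array median moved from 0.0321 to 0.0422 on control array 1 with means over members. On control array 2 it moved from 0.0183 to -0.0071 with at least 2 spots per gene, 0.0471 without regulators and -0.0013 with means. On AT-EAE array 2 it ran from 0.1266 to 0.2189. No factor reached 2-fold, and limma called 0 factors in either comparison, under every alternative run for them. Over all 5429 genes the 1 call for the mean ratio became 3 to 169 with 1 array left out (169 without AT-EAE array 1), 3 of 7391 spots and 13 of 7229 genes under a looser filter. The 1 call for the AT-EAE minus control ratio became 1 to 17 (17 without AT-EAE array 1), 0 spots and 3 genes. With 1 array left out, the lone array of a group was assumed to vary like the others.

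The array numbers are shared by the groups only as names. With the array number as a replicate block, limma called 0 factors, as without it, and 41 of 5429 genes in place of 1 for the mean ratio and 6 in place of 1 for the difference. Deviations of same-numbered arrays correlated at -0.287. The cause was not tested. Signal over background was not analysed here, and 2 arrays per group limit every comparison.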
